A study of Rattus norvegicus with 6 samples.

Results

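The receptor gene Ret, the co-receptor genes Gfra1 and Gfra2 and the ligand gene Gdnf were followed in the substantia nigra pars compacta of rats that had received rotenone or its solvent. They were represented by 8 of the 33849 probes of the array, 2 for Ret, 3 for Gfra1, 2 for Gfra2 and 1 for Gdnf. A probe was taken where its accession, without version, was a rat RefSeq transcript of the gene, and 4675 probes, for 4013 genes, could be named in this way. The animals were 6 male Sprague Dawley rats aged 5 months, and each gave 1 one-colour array. Rotenone, a pesticide that blocks complex I of the mitochondrial respiratory chain, reached 3 rats (16, 13 and 9) from osmotic pumps under the skin at 0.5 mg/kg per day for 28 days. The other 3 rats (11, 7 and 1) carried pumps with the solvent alone, a mixture of dimethylsulfoxide, polyethylene glycol and a Pluronic surfactant. Rats of both groups were anaesthetised with ketamine and xylazine for the implantation. The region was cut out by laser capture, so a sample held its neurons together with glia and vessels. The comparison asks whether a lasting low dose of the pesticide changes the RNA of these genes in the region.

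Glial cell line-derived neurotrophic factor (GDNF) is a secreted protein that supports midbrain dopamine neurons. It binds the lipid-anchored co-receptor GFRα1, and the pair activates the receptor tyrosine kinase RET, which signals through the RAS-MAP kinase and PI3 kinase pathways. GFRα2 is the preferred co-receptor of neurturin, a related ligand, and dopamine neurons of the adult nigra carry RET and GFRα1.

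Of the 8 probes, 1 each for Ret and Gfra2 and 2 for Gfra1 were above background on all 6 arrays, and Gdnf was above it on none. None of the 4 tested probes passed the test between rotenone and solvent. The probes GE1105553 of Ret, GE1306066 of Gfra1 and GE1277792 of Gfra2 differed by 0.02, 0.0041 and -0.03 on the log2 scale. The other bright probe of Gfra1, GE22011, was lower in each rotenone rat than in any solvent rat, by 0.86 on average, and it missed the adjusted threshold. The 2 probes of Gfra1 thus gave different values for the same gene, and they did so on the arrays of rotenone rats 16 and 9.

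A value is given below either as a net intensity, which is the mean of a spot minus the median of its local background, or as a normalized log2 intensity, after background correction with an offset of 50 and quantile normalization. The offset draws differences towards 0. A probe counted as above background on an array where the scanner had not marked it as near background or masked, and it was tested if this held on at least 3 of the 6 arrays. This was the case for 16708 probes covering 2263 named genes. Between 44.2% and 51.5% of the probes were above background on an array. The array of rotenone rat 16 stood apart, since its values correlated with those of the other arrays at 0.931 on average across probes, where the other 5 arrays reached 0.956 to 0.964. The file header of solvent rat 7 carries an earlier date than those of the other 5 arrays, which share one. Several markers of dopamine neurons were bright on every array. Th, the rate-limiting enzyme of dopamine synthesis, lay at a normalized log2 intensity of 12.85 ± 0.27 in rotenone rats and 12.74 ± 0.22 in solvent rats (SD, n = 3 each), and Slc6a3, the dopamine transporter, at 12.53 ± 0.07 in rotenone rats and 12.73 ± 0.11 in solvent rats, without overlap. Of 22 dopamine markers 15 were on the array by name and 12 were tested. Kcnj6 was above background on no array, and Pitx3, a transcription factor of these neurons, on 0 rotenone arrays and 3 solvent arrays.

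The ligand Gdnf had a single probe, GE22204. Its net intensity was -2.0, 9.0 and 1.03 in rotenone rats 16, 13 and 9, against -0.14, 2.69 and 9.31 in solvent rats 11, 7 and 1. The groups overlapped, and no value reached the 95th percentile of the 256 negative control spots of its array, which lay between 10.8 and 12.2. Gdnf was thus not above background in either group, and no difference was tested. Among the other ligands, neurturin (Nrtn, probe GE1243351) was above background in all 6 rats, with normalized log2 intensities of 8.60, 8.64 and 8.39 in rotenone rats 16, 13 and 9, against 8.79, 9.73 and 8.27 in solvent rats 11, 7 and 1. Solvent rat 7 was the highest and solvent rat 1 the lowest, and the difference of -0.38 ± 0.31 (SE) did not pass the test (limma, adjusted p = 0.898). Persephin (Pspn), a further ligand of the family, was above background on 1 array.

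Ret, the signalling receptor, was measured by GE1105553. Its net intensity was 342, 490 and 440 in rotenone rats 16, 13 and 9, against 501, 407 and 478 in solvent rats 11, 7 and 1. On the normalized log2 scale these rats had 8.82, 9.08 and 8.99 with rotenone, against 9.14, 8.76 and 8.93 with solvent. The highest and the lowest of the 6 normalized values both came from solvent rats, and the rotenone values lay between them. The means were 8.96 ± 0.14 with rotenone and 8.94 ± 0.19 with solvent (SD, n = 3 each). The difference was 0.02, with a 95% interval from -0.36 to 0.40 and an adjusted p of 0.991 (limma's moderated test, two-sided, Benjamini-Hochberg over all probes tested). Its sign depended on the scaling, being -0.08 with the medians of the arrays equalised. In these pieces of tissue, the number of cells that carry Ret and the Ret RNA in each cell cannot be told apart.

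The second Ret probe, GE15732, lay near background and was not tested. It had net intensities of 3.32, 12.9 and 6.93 in rotenone rats 16, 13 and 9, against 15.7, 24.1 and 17.5 in solvent rats 11, 7 and 1. All 3 rotenone values were below all 3 solvent values, also after normalization. Among the tested probes, to which GE15732 does not belong, 4.89% were lower without overlap in this way. The scanner marked GE15732 as above background on 2 solvent arrays and on no rotenone array, and its net intensity exceeded the 95th percentile of the negative control spots in 3 solvent rats and 1 rotenone rat. The rotenone rats were then set to the lowest value of any probe above background on their arrays, or to their own value if higher. With these values the solvent mean was 1.12-fold the rotenone mean, which is not a measured difference. This ratio rests on the group in which the probe was above background. It leaves out the spread among rats, and it uses the value of solvent rat 11, which was marked near background. Across the 6 arrays the 2 Ret probes had a Pearson r of -0.0044, over values of which one set was close to background.

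**Figure D1:**
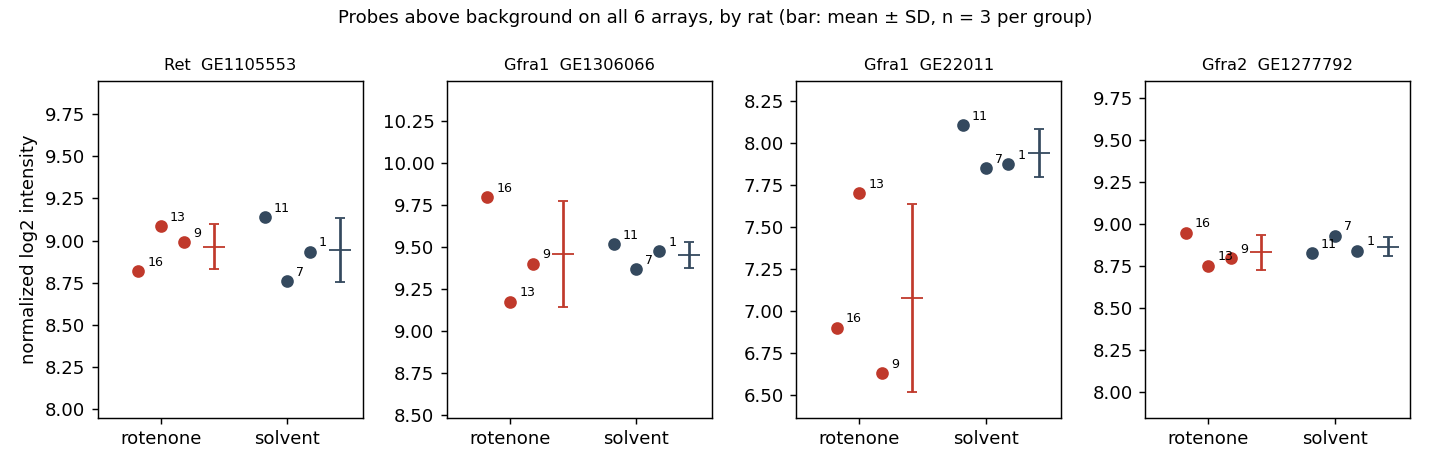
Normalized log2 intensity of the 4 probes above background on all 6 arrays, 1 point per rat with the rat's number, rotenone on the left and solvent on the right of each panel, with the mean ± SD (n = 3) beside the points. Each vertical axis spans the same range of log2 units. The groups overlap for Ret, Gfra2 and the Gfra1 probe GE1306066, while the 3 rotenone values of GE22011 lie below the 3 solvent values, rat 13 closest to them.

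Gfra1, the co-receptor through which GDNF reaches Ret, had 3 probes, all assigned by the files to one transcript. GE1306066 had net intensities of 756, 523 and 611 in rotenone rats 16, 13 and 9, against 664, 653 and 705 in solvent rats 11, 7 and 1. Its normalized log2 intensities were 9.80, 9.17 and 9.40 with rotenone, against 9.52, 9.37 and 9.47 with solvent. The rotenone rats held both the highest value, in rat 16, and the lowest, in rat 13, and their SD was 0.31, against 0.08 in solvent rats. The means were 9.46 with rotenone and 9.45 with solvent, a difference of 0.0041 with a 95% interval from -0.42 to 0.43 (limma, adjusted p = 0.999). Without rotenone rat 16 the difference was -0.16, and without rotenone rat 13 it was 0.15. It was -0.06 with the medians of the arrays equalised.

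GE22011 had net intensities of 46.9, 160 and 42 in rotenone rats 16, 13 and 9, against 224, 189 and 198 in solvent rats 11, 7 and 1. The normalized log2 intensities were 6.90, 7.70 and 6.63 with rotenone, against 8.10, 7.85 and 7.87 with solvent. Rats 16 and 9 were far below the solvent rats, and rat 13 lay just under the lowest of them. The means were 7.08 ± 0.56 with rotenone and 7.94 ± 0.14 with solvent (SD, n = 3 each). The difference was -0.86 ± 0.26 (SE), with a 95% interval from -1.43 to -0.29, and limma gave it an unadjusted p of 0.0071 and, after adjustment, 0.895. It therefore did not pass, and in the linear model without moderation its unadjusted p was 0.060. An exact permutation test of this probe gave p = 0.1, two-sided, the smallest value that 3 rats against 3 allow. The probe had been pointed out earlier for its values in these same arrays.

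The size of the difference at GE22011 depended on the background correction. It was -1.34 with plain subtraction of the background, -1.35 with the authors' own scaled intensity and -1.41 in the deposited value table without the column of solvent rat 7. On the net scale the means were 82.8 ± 66.5 in rotenone rats and 204 ± 18.4 in solvent rats. Leaving out rotenone rat 9 gave a normalized difference of -0.64, leaving out rat 13 gave -1.17, and leaving out rat 16, with the odd array, gave -0.78.

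Against the background of the whole array, limma called 0 of 16708 probes (0%) at an adjusted p of 0.05, and 0 were called in the linear model without moderation. Without adjustment, limma's p was below 0.05 at 825 probes (4.94%) and below 0.01 at 114 (0.682%), GE22011 among both. The rotenone values lay below the solvent values without overlap at 817 probes (4.89%) and above them at 848 (5.08%), 9.97% together. Of the 4 tested probes of the GDNF receptor genes 1 was lower without overlap and 0 were higher. A log2 difference at or below that of GE22011 was found at 23 probes, or 0.138%, itself included.

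The Gfra1 probe GE20083 was near background, above it on 1 solvent array and on no rotenone array, and was not tested. Its net intensities were 2.94, 6.53 and 5.00 in rotenone rats 16, 13 and 9, against 8.14, 5.79 and 14.2 in solvent rats 11, 7 and 1. Values of rats 13 and 7 overlapped, and rat 1 was the only one over the 95th percentile of the negative spots.

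**Figure D2:**
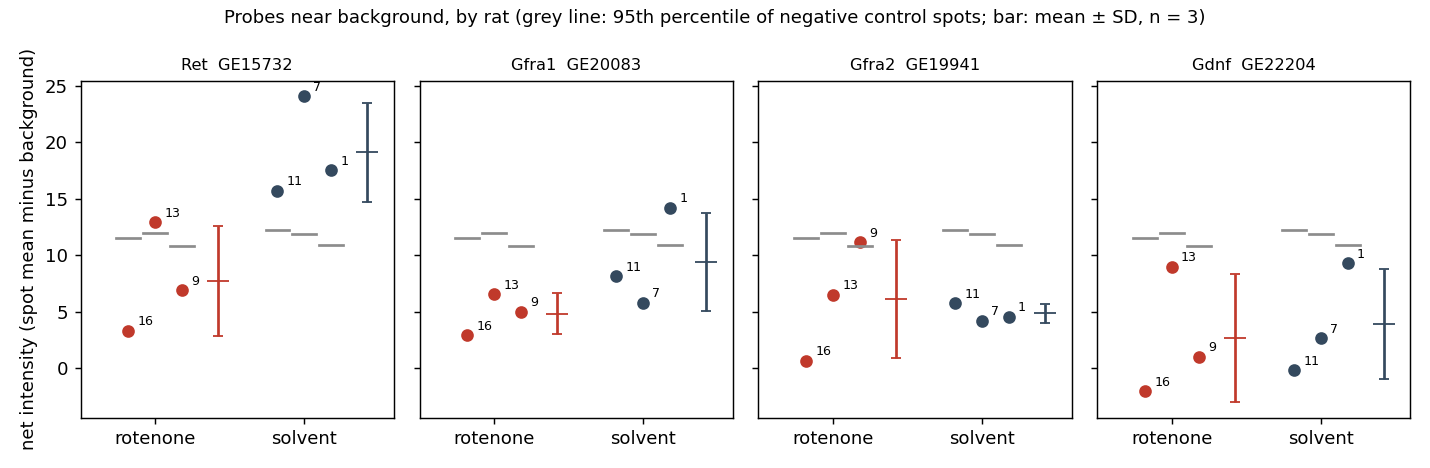
Net intensity (spot mean minus background median, linear scale) of the 4 probes that were not tested, 1 point per rat with the rat's number, rotenone left and solvent right, with the mean ± SD (n = 3). Grey lines give the 95th percentile of the 256 negative control spots on each array. The points of Gdnf all lie under these lines, and those of the Ret probe GE15732 lie over them in the 3 solvent rats and in rotenone rat 13.

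Set against its own solvent mean on each array, the bright Gfra1 probe GE1306066 stood at 0.34, -0.28 and -0.05 in rotenone rats 16, 13 and 9, while the solvent rats spanned -0.08 to 0.06. GE22011 stood at -1.04, -0.24 and -1.31 in the same rotenone rats, while the solvent rats spanned -0.09 to 0.16. The deviations of the 2 probes lay close to each other in rotenone rat 13 and in the 3 solvent rats, and far apart in rotenone rats 16 and 9. The within-array difference, GE22011 minus GE1306066, was -2.89, -1.47 and -2.77 in rotenone rats 16, 13 and 9, against -1.41, -1.52 and -1.60 in solvent rats 11, 7 and 1. Rat 13 lay among the solvent rats. The group means of this difference were -2.38 ± 0.79 with rotenone and -1.51 ± 0.10 with solvent (SD, n = 3 each), which is -0.87 apart, with p = 0.3 in an exact permutation test over the 6 arrays (two-sided; the smallest value possible is 0.1). The disagreement between the probes did not pass this test. Without rotenone rat 16 it was -0.62 and without rotenone rat 13 it was -1.32, and it was -1.35 with plain subtraction of the background.

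**Figure D3:**
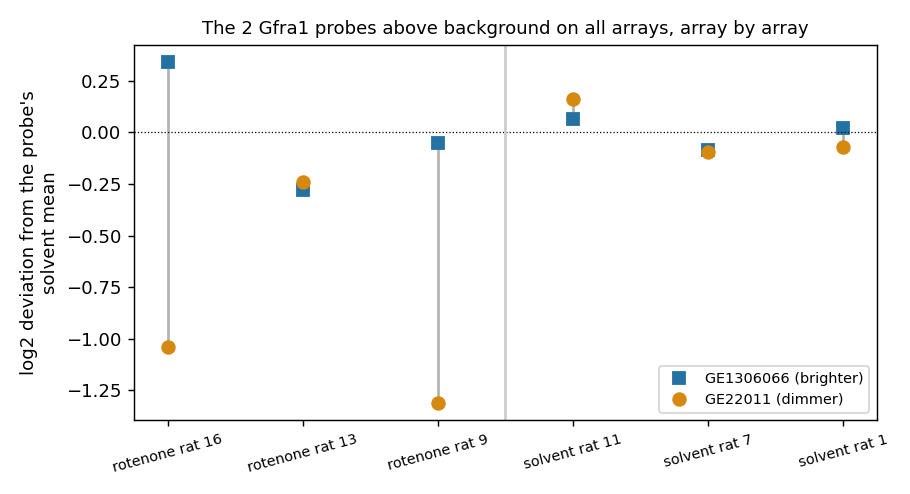
Deviation of each of the bright Gfra1 probes from its own mean over the 3 solvent rats, in log2 units, for each array, with rotenone rats on the left. Grey lines join the 2 probes of an array. GE1306066 stays between -0.28 and 0.34, while GE22011 lies at -1.04 and -1.31 on the arrays of rotenone rats 16 and 9 and at -0.24 on that of rat 13.

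Several measurements on the array itself stood beside GE22011. The local background of its spot was 46, 37 and 34 in rotenone rats 16, 13 and 9, against 44, 36 and 37 in solvent rats 11, 7 and 1, so the groups overlapped there. The 94 tested probes within 6 rows and columns of the spot had a median deviation from their solvent means of -0.04, -0.03 and 0.01 in rotenone rats 16, 13 and 9, while the solvent rats spanned -0.03 to 0.05. With the median of the pixels of a spot in place of the mean, a setting chosen after the data were seen, the difference was -0.87 at GE22011 and -0.06 at GE1306066. Of the arrays, only that of rotenone rat 16 left the spot of GE22011 without the scanner's mark for irregular spots. The other 3 tested probes carried that mark on all 6 arrays, so that no comparison of the 4 probes was possible without marked spots.

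Among named genes, 144 had at least 2 probes above background on all 6 arrays, which gave 150 pairs of probes. The rotenone minus solvent differences of such a pair lay a median of 0.14 log2 units apart, with a 90th percentile of 0.45. The Gfra1 pair was 0.87 apart, and 3 of the 150 pairs (2%), itself included, were at least as far apart. The median Pearson r of a pair across the 6 arrays was 0.63, and that of the Gfra1 pair was -0.33. An r of that size or lower was found in 13 of the pairs, over 6 arrays that include the odd array of rat 16. The positions of the Gfra1 probes on the transcript were not used here.

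Gfra2, the co-receptor of neurturin, was measured by GE1277792. The net intensity was 381, 381 and 375 in rotenone rats 16, 13 and 9, against 394, 464 and 444 in solvent rats 11, 7 and 1. Before normalization between arrays the 3 rotenone values were thus below the 3 solvent values. The normalized log2 intensities were 8.95, 8.75 and 8.80 with rotenone, against 8.83, 8.93 and 8.84 with solvent, and here the groups overlapped, with rotenone rat 16 the highest. The means were 8.83 ± 0.10 with rotenone and 8.87 ± 0.06 with solvent (SD, n = 3 each). The difference was -0.03, with a 95% interval from -0.38 to 0.31 and an adjusted p of 0.978 in limma. It was -0.13 with the medians of the arrays equalised and 0.04 with the authors' scaled intensity. The second Gfra2 probe, GE19941, was above background on no array, and its net intensity lay between 0.69 and 11.1 in rotenone rats and between 4.23 and 5.77 in solvent rats.

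**Figure D4:**
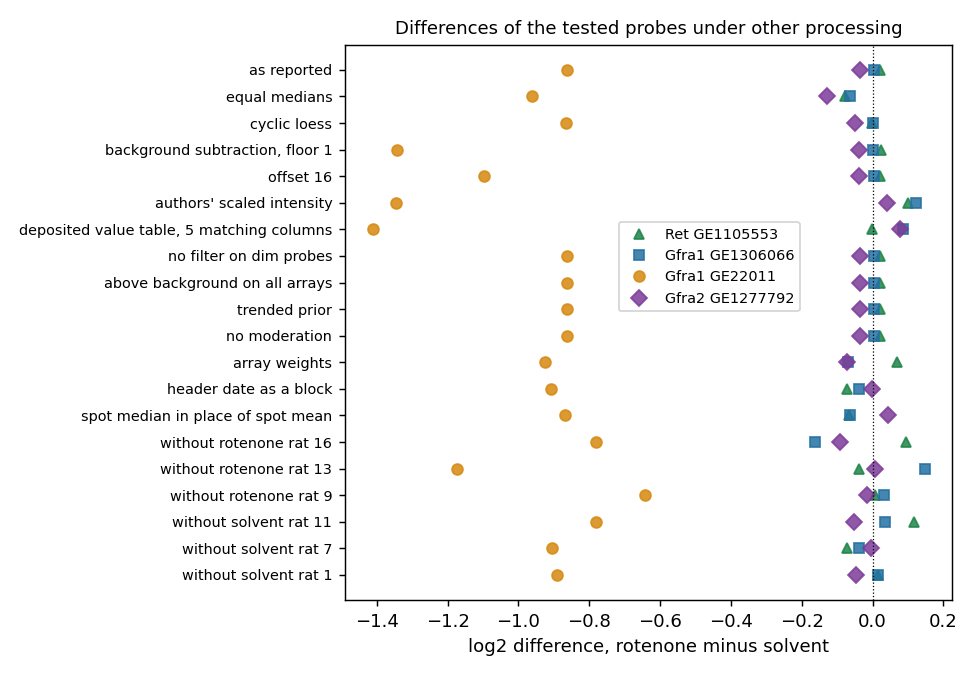
Log2 difference, rotenone minus solvent, of the 4 tested probes (horizontal axis) as reported and under each of 19 other ways of processing (1 line each, the lowest 6 with 1 rat left out). GE22011 lies between -1.41 and -0.64 throughout, and the other 3 probes lie on both sides of 0, between -0.16 and 0.15.

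Differences in cell content were read from marker lists on the same arrays, as the sum of normalized linear intensities over the tested markers. Dopamine neuron markers (12 of 22 tested) summed to 27355 to 37393 in rotenone rats and to 29976 to 36544 in solvent rats. Ddc, Th, Slc6a3 and Cck were the brightest of them and weigh most in this sum. In mean 4 of the 12 were higher and 8 lower, where 8078 of all 16708 tested probes were lower. Of the 8, Pitx3 was tested only through its values on the solvent arrays. Slc6a3 and Sncg (-0.67 ± 0.23, SE) were lower without overlap, and 0 of the 12 passed the adjusted test. General neuron markers (9 of 17 tested) summed to 5228, 6478 and 7437 in rotenone rats 16, 13 and 9, against 7993 to 9202 in solvent rats, without overlap. Gap43, a growth cone protein, was the brightest of them. In mean 0 of the 9 were higher and 9 lower, and 2 were lower without overlap. Over all tested probes 9.97% were without overlap. The median deviations of the neuron list overlapped, at -0.70, -0.05 and -0.18 in rotenone rats 16, 13 and 9, against 0.14, -0.01 and -0.19 in solvent rats 11, 7 and 1. Astrocyte markers (8 of 12 tested) summed to 12458 to 13932 in rotenone rats, against 10504 to 12228 in solvent rats, also without overlap. Glul was the brightest of them and weighs most in this sum, and its own values overlapped between the groups. Of the 8 markers 5 were higher and 3 lower in mean, and 1 (Gjb6) was without overlap. The median deviations overlapped, from -0.0021 to 0.34 in rotenone rats and from -0.08 to 0.09 in solvent rats. Aqp4, Slc1a2 and Ntsr2 of the astrocyte list and Snap25 of the neuron list were above background on no array. The sums of GABA neuron (6 of 9), oligodendrocyte (9 of 14) and microglia (5 of 12) markers overlapped between the groups. In rotenone rats 16, 13 and 9 GE22011 lay at 6.90, 7.70 and 6.63 on the normalized log2 scale. The neuron sums of all 3 were below those of the solvent rats, but in another order of rats. The sum was lowest in rat 16 and highest in rat 9, while GE22011 was lowest in rat 9 and highest in rat 13. The part of these lists in the values of GE22011 was not tested.

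Genes with the most similar pattern over the 6 arrays were sought among 1713 named genes above background on all of them, by Pearson r. With so few arrays high values are reached easily, and they describe these arrays only. For Ret, the potassium-chloride cotransporter gene Slc12a5 came first (r = 0.99), followed by Ipmk (0.99), an inositol phosphate kinase, and Hspbap1 (0.96). Slc12a5 lay at 8.92, 9.48 and 9.24 in rotenone rats 16, 13 and 9, against 9.64, 8.85 and 9.16 in solvent rats 11, 7 and 1, in the same order of rats as Ret. For the Gfra1 probe GE1306066 they were Mpg, a DNA repair glycosylase, the serotonin receptor gene Htr6 (both r = 0.98) and Scfd1 (0.96). For GE22011 they were the kinase gene Map2k5 (0.95), Secisbp2 (0.95) and the ferritin heavy chain gene Fth1 (0.95). Fth1, the iron-storing ferritin subunit, had 9.03, 10.19 and 9.37 in rotenone rats 16, 13 and 9, against 10.53, 10.31 and 10.23 in solvent rats, so that rats 16 and 9 were low at both genes. Its difference was -0.83 ± 0.27 (SE), which did not pass (limma, adjusted p = 0.895). For Gfra2 they were the endoplasmic reticulum gene Erp29 (0.95), Plppr3 (0.94) and the lysosomal protease gene Ctsd (0.91), each highest in rotenone rat 16, as was Gfra2. None of the 12 genes was shared between probes, the Gfra1 probes included.

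In the wider pathway no gene passed the test. Of 11 ligands and receptors of the GDNF family, 7 were on the array by name and 5 were tested, with 0 called, 3 higher and 2 lower in mean, and a median difference of 0.0041. Over all tested probes the median was 0.0089. Besides the genes above, Gdf15, a distant family member that signals through Ret by another co-receptor, differed by 0.0061 near background.

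Of 14 other membrane partners and regulators of Ret and GDNF, 4 were tested, 0 were called, 2 were higher and 2 lower in mean, and the median was -0.01. Ncam1, the neural cell adhesion molecule that can bind GDNF with GFRα1 in place of Ret, differed by 0.04 ± 0.35 (SE). It lay at 9.53, 8.30 and 8.58 in rotenone rats 16, 13 and 9, against 8.50, 8.37 and 9.42 in solvent rats 11, 7 and 1, one high rat in each group. The integrin subunit Itgb1 differed by -0.67 ± 0.28 (adjusted p = 0.895 in limma), with 7.43 in rotenone rat 16 above 7.09 in solvent rat 11. The heparan sulfate proteoglycan gene Gpc1 differed by 0.14 ± 0.20 and the receptor phosphatase gene Ptprj by -0.06 ± 0.32. The syndecan Sdc3, which binds GDNF, was above background on no array.

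Of 43 genes of Ret adaptors and signalling, 19 were on the array by name and 11 were tested, with 0 called, 6 higher and 5 lower in mean, and a median of 0.01. Low p values belonged to Map2k2 (-0.37 ± 0.18, SE), a kinase that activates the MAP kinases, the adaptor gene Crk (-0.30 ± 0.17) and the transcription factor gene Stat3 (-0.33 ± 0.25). Their adjusted p values in limma were 0.895 each. Of the 11, 1 was without overlap, where 9.97% of all tested probes were. This was Map2k2, at 8.73, 9.07 and 9.18 in rotenone rats 16, 13 and 9, against 9.44, 9.44 and 9.19 in solvent rats 11, 7 and 1. Crk was above background on 1 rotenone array and 3 solvent arrays. The MAP kinase gene Mapk3 (0.05 ± 0.24) and the phospholipase gene Plcg1 (0.11 ± 0.20, and -0.02 at its other probe) differed by less than their errors.

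Of 12 targets and feedback regulators 1 was tested, the immediate early gene Egr1. It lay at 7.68, 7.32 and 6.74 in rotenone rats 16, 13 and 9, against 6.80, 6.56 and 7.05 in solvent rats 11, 7 and 1, with rat 9 inside the solvent range. Its difference of 0.44 ± 0.24 (SE) did not pass the test (limma, adjusted p = 0.895). Dusp6, a phosphatase that damps MAP kinase signalling, was above background on no array. The probe of the protease gene Mmp14 was masked by the scanner on all 6 arrays and was not tested.

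**Figure D5:**
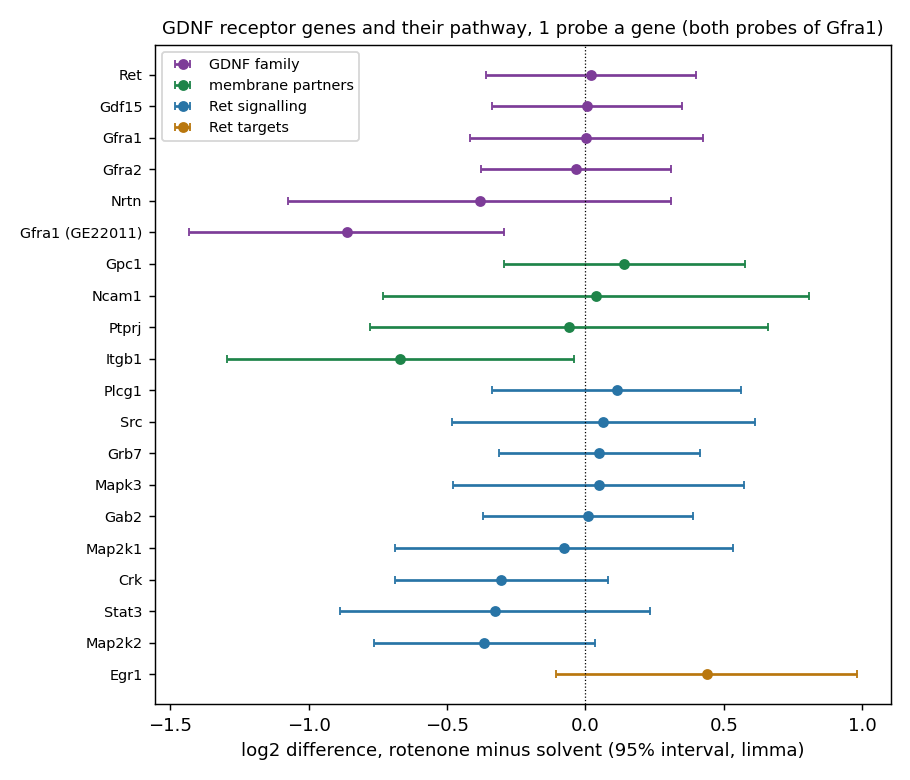
Log2 difference, rotenone minus solvent, with its 95% interval from limma, for tested genes of the GDNF family, its membrane partners, Ret signalling (9 of 11) and Ret targets (1 probe a gene, and in addition the Gfra1 probe GE22011). Ret lies at 0.02, Gfra1 by GE1306066 at 0.0041 and Gfra2 at -0.03, and GE22011 at -0.86 is the lowest shown. No gene passed the adjusted test.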

How the data were processed

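Amplified, biotin-labelled RNA of each rat was hybridised to 1 array, per the labels' protocols. The deposited scanner files give linear intensities per spot, and for the scanner software a name is not given in the sources here. The authors' scaled intensity in these files and in the deposited value table is centred near 1 per array. Column medians of that table were 0.999, 0.998 and 0.996 for rotenone rats 16, 13 and 9 and 0.994, 1.00 and 0.996 for solvent rats 11, 7 and 1. Its scale is linear, and a one-colour value has no direction. For 5 columns all 33849 probes equalled the scanner file within 1e-06. That of solvent rat 7 did so for 0.898% and was left out where the table was used.

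Probes were named through a RefSeq table of GRCr8, without coordinates. Background was corrected with normexp (offset 50), and the log2 values were quantile-normalized without control spots. Every spot was kept, since the scanner's irregular mark covers 97.9% to 99.0% of probes with a net intensity over 100. Groups were compared with limma 3.58.1 (R 4.3.3), and two-sided p values were adjusted by the Benjamini-Hochberg method over all probes tested. The number of arrays limits the precision. Lists used 1 probe per gene, the one with the highest mean. Egr1, Slc6a3, Itgb1, Stat3 and Crk each had another probe, which was above background on no array.

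The members, lists and tests were chosen with earlier results of these data known. Named genes are all members, the 3 nearest genes by Pearson r for each tested member probe, the 4 lowest p values of each pathway list and fixed markers, except that 2 signalling genes are counted but not reported here. Of the fixed markers, Ddc, Slc18a2, Nr4a2, Gfap, Mbp, Aif1 and Gad1 differed by 0.07, -0.54, -0.79, -0.15, -0.38, -0.06 and -0.03 on the log2 scale, none past the adjusted test. Alternatives covered normalization, background, filter, spread, array weights, header date and each rat left out.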

Additional observations from a re-analysis of the deposited data

How the results depend on the processing

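No alternative brought any of the 4 tested probes past the adjusted threshold, and GE22011 kept its sign in all 19 that gave it a value, between -1.41 and -0.64 (adjusted p from 0.606 to 1.00). The near-zero differences changed sign. That of Ret was -0.078 with equal medians, -0.00078 with cyclic loess, -0.0016 in the value table, -0.073 with the header date as a block and -0.066 with spot medians, a setting chosen after seeing the data, and -0.072 to 0.12 with a rat left out. That of GE1306066 was -0.063 with equal medians, -0.070 with array weights, -0.038 with the date block and -0.063 with spot medians, and -0.16 to 0.15 with a rat left out. That of Gfra2 was 0.042 with the authors' scaled intensity, 0.079 in the value table and 0.044 with spot medians, and -0.091 to 0.0057 with a rat left out. The probe disagreement of Gfra1 kept its sign in 13 alternatives (-1.50 to -0.62). Probes past the threshold numbered 1 with spot medians and 0 to 3 with a rat left out, the 3 without solvent rat 1. The median of the family list was -0.078 with equal medians, 0.086 in the value table, -0.070 with array weights and -0.063 with spot medians, and -0.091 to 0.0097 with a rat left out. That of the membrane partners was -0.34 in the value table, -0.30 with the date block and -0.10 with equal medians, and -0.30 to 0.19 with a rat left out. That of Ret signalling was -0.10 with background subtraction, -0.082 with the authors' scaled intensity, -0.13 in the value table and -0.087 without marked spots (5 genes), and -0.20 to 0.038 with a rat left out. With equal medians the median difference of all tested probes was -0.06, where it was 0.0089 as reported. The causes were not tested. Without marked spots no member probe gave a value. The date block isolates solvent rat 7 alone, and the value without that rat is the one within the other date. No paired analysis was possible because the groups share no replicate number. With 3 rats a group, the difference of -0.86 at GE22011 did not pass the adjusted threshold. A change of that size could be missed at a probe with such a spread among rats. The 95% intervals of the other 3 tested probes, from limma, lay between -0.42 and 0.43.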

Other observations

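Of all genes with at least 2 tested probes, 5 pairs of probes disagreed on the rotenone minus solvent difference by at least as much as the Gfra1 pair, itself included. The others, named after their values were seen, belonged to the myelin gene Mobp (2 pairs, 1.25 and 0.88 log2 units apart), to Zranb2 (1.13 apart) and to Smad1 (0.92 apart), a transducer of bone morphogenetic protein signals. Across the 6 arrays the probes of Zranb2 and Smad1 ran opposite to each other, with Pearson r of -0.86 and -0.76.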
